A study of Mus musculus with 4 samples.

Results

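Heterogeneous nuclear ribonucleoproteins (hnRNPs) are examined here through 10 genes, *Hnrnpa1*, *Hnrnpa2b1*, *Hnrnpab*, *Hnrnpc*, *Hnrnpd*, *Hnrnpdl*, *Hnrnph1*, *Hnrnph3*, *Hnrnpk* and *Hnrnpr*, in mouse brain with and without the splicing regulator PTBP2. The unit of measurement is the exon trio, a middle exon with the exon on either side of it. A trio was assigned to a gene when its chromosome, strand, middle exon length and both intron lengths matched a transcript of GENCODE mouse release M21, and it was kept when at least 20 reads lay on its 3 junctions in both libraries of a stage. Of 228333 trios in the series, 152 matched these genes and all 152 passed, the lowest with 21 reads. They hold 104 distinct middle exons, of which 23 carry the cassette label in the splicing database (30 trios) and 82 the constitutive label (122 trios), with 1 exon in both sets.

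RNAseq was carried out on 4 libraries, 1 for each group, so no group has a replicate and every comparison below is between single libraries. At embryonic day 18 (E18) the libraries came from whole brain, each from 2 brains, of *Ptbp2* Nestin-KO embryos (NesKO) and of WT embryos, and they were not strand specific. At postnatal day 1 (P1) they came from cortex, 1 cortex each, of a *Ptbp2* Emx-KO pup (EmxKO) and a WT pup, and they were strand specific. All mice were on a mixed background, spelled C56Bl/6:129S2 in the labels. In both mutants Cre recombinase removes the floxed exon 4 of *Ptbp2*, under the nestin promoter in neural progenitors and their progeny or under *Emx1* in the dorsal forebrain lineage. Cells outside these lineages keep the gene. The targeted exon was skipped in 100% of the junction reads of the NesKO library (95% Wilson interval, 98.5 to 100%) and in 0.225% (0.0398 to 1.26%) of the E18 WT library. At P1 it was skipped in 82.6% (79.9 to 85.1%) in the EmxKO library and in 31.5% (29.5 to 33.7%, 604 skipping reads) in the library labelled WT. The latter value is far above that of the E18 WT library, so the second control is called the P1 library labelled WT throughout. The origin of these reads was not tested, and every EmxKO difference is relative to that library.

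hnRNPs are abundant RNA-binding proteins that coat nascent transcripts and take part in splice site choice, mRNA export and mRNA stability. Most have RNA recognition motifs or KH domains that contact RNA and a flexible, glycine-rich tail through which the proteins contact each other. Many tune their own expression by splicing, either by changing the tail or by producing transcripts with early stop codons that are degraded by nonsense-mediated decay (NMD). PTBP2 is itself an hnRNP, the neuronal relative of PTBP1 (hnRNP I).

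The exons shown first encode part of the tails of 4 of these proteins, because 3 of them are among the coding exons that changed between the stages with read support. Of 71 middle exons of 9 genes (*Hnrnpa1* was left out of this count) that lie wholly in coding sequence, 8 have glycine or tyrosine in at least 50% of their codons. The 4 of at least 100 nt are given here and called tail exons below, a choice made after the values were seen. The sequences are from GENCODE transcripts on GRCm38, read 5′ to 3′ on the coding strand, and capitals mark in-frame codons that start with GG, all of which encode glycine. The *Hnrnpa2b1* exon is chr6:51464428-51464547 (-), exon 8 of 12. The *Hnrnpab* exon is chr11:51601750-51601890 (-), exon 7 of 8. The *Hnrnpd* exon is chr5:99963731-99963877 (-), exon 7 of 9, and the *Hnrnpdl* exon is chr5:100036481-100036651 (-), exon 6 of 8.
Hnrnpa2b1 120 nt: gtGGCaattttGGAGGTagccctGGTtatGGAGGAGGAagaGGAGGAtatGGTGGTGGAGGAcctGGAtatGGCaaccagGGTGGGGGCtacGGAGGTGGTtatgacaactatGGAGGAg
Hnrnpab 141 nt: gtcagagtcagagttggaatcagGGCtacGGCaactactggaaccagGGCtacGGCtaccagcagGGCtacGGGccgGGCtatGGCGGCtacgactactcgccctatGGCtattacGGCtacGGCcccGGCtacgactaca
Hnrnpd 147 nt: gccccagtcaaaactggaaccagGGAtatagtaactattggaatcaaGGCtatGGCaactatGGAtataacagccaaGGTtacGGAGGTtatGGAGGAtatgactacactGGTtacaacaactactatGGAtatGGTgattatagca
Hnrnpdl 171 nt: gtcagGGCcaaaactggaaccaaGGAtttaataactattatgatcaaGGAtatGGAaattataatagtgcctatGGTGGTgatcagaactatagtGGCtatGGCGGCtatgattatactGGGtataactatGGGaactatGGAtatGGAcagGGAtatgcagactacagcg

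Each of these exons has a length that is a multiple of 3 and lies wholly within coding sequence, so that skipping keeps the reading frame. In *Hnrnpa2b1* 23 of 39 complete codons (59.0%) encode glycine, against 20.9% in the rest of the same coding sequence. In *Hnrnpab*, *Hnrnpd* and *Hnrnpdl* the share is lower, 28.3%, 25.0% and 25.0%, and tyrosine codons (TAT or TAC) are about as frequent, at 30.4%, 29.2% and 26.8%. Over 21584 coding genes glycine codons made up 6.38% and tyrosine codons 2.73%. Among the other frame-keeping cassette exons, those of 36 nt in *Hnrnpa2b1* and 57 nt in *Hnrnpd* hold no glycine codon, and the 72 nt exon of *Hnrnpk* holds 1 in 24.

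**Figure D1:**
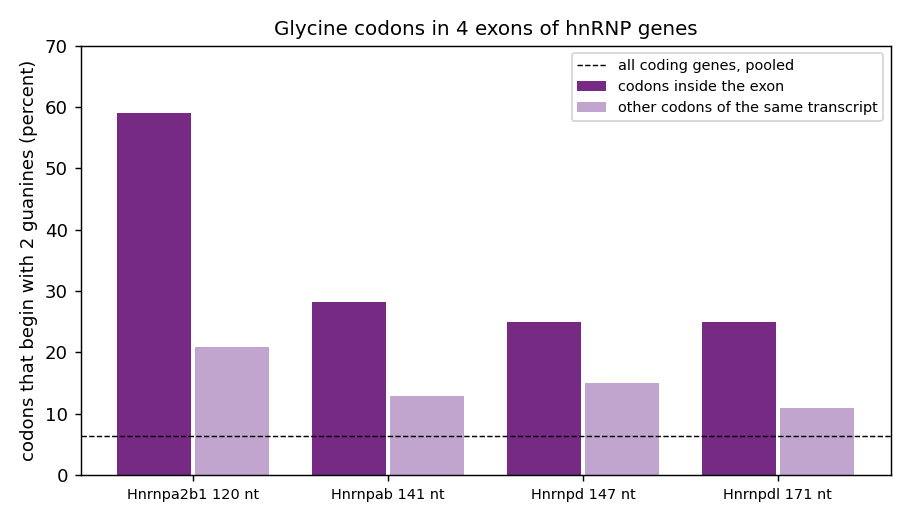
Share of codons that begin with 2 guanines (percent, y axis) inside 4 tail exons and in the other codons of the same transcript. Bars inside the exons run from 25.0 to 59.0%, above the 11 to 20.9% of the other codons, and the dashed line marks the 6.38% pooled over all coding genes.

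Inclusion is given as percent spliced in (PSI), the share of transcripts that hold the exon as the study's SpliceTrap program estimated it from paired reads and corrected it. Beside it stands a PSI from junction reads alone, which is the mean of the reads on the 2 inclusion junctions over that mean plus the skipping reads. A difference of at least 10 PSI points is called a change. A two-sided Fisher's exact test on junction reads, its p adjusted after Benjamini and Hochberg over all trios with 20 reads, says whether 2 libraries differ by more than counting error. It compares these libraries and not the genotypes, and the words rose and fell below are used for an adjusted p under 0.05. Libraries held 48367448 to 83394001 reads over distinct junctions, and the median member trio 2974.5 to 7018.5 reads. The median over all trios with 20 reads was 215 to 444. The floor, 3 reads as a share of all reads on the 3 junctions of a member trio of median depth, was 0.0427 to 0.101%. Junction-read PSI averages the inclusion junctions, so its floor is higher where inclusion is high. A count test passes more readily at greater depth, and counting error moves PSI past 10 points more readily at lower depth. Neither the share of member trios with an adjusted p under 0.05 nor that past 10 points can therefore be read against the background shares. These are given for scale only. Intervals and floors cover counting error only.

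The cassette exons covered the whole scale of inclusion. Among exons that keep the frame, *Hnrnpa1* 156 nt was included at 98.9 to 99.9% PSI in the 4 libraries, *Hnrnpd* 57 nt at 82.8 to 85.5% and *Hnrnpk* 72 nt at 82.3 to 86.9%. *Hnrnpa2b1* 36 nt, exon 2, whose inclusion separates hnRNP B1 from hnRNP A2, was included at 3.3 to 6.8%. Of the 9 cassette exons with no annotated coding base, 6 stayed at or under 31.8% in every library. *Hnrnpd* 107 nt stood at 1.9 to 3.0%, *Hnrnpc* 1223 nt at 1.3 to 5.1% and *Hnrnpdl* 105 nt at 21 to 31.8%. The other 3 were *Hnrnpc* 26 nt at 49.1 to 72.1%, *Hnrnpa2b1* 136 nt at 85.9 to 95.2% and *Hnrnpa1* 1711 nt at 97.1 to 98.4%. In the last, 13967 reads lay on one inclusion junction and 125 on the other in the NesKO library. In 5 of the 28 exons named here (*Hnrnpa1* 1711 nt, *Hnrnpc* 229 nt and *Hnrnpk* 83, 44 and 54 nt) the 2 inclusion junctions differed at least 10-fold in every library, so their PSI rests on 1 junction.

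**Figure D2:**
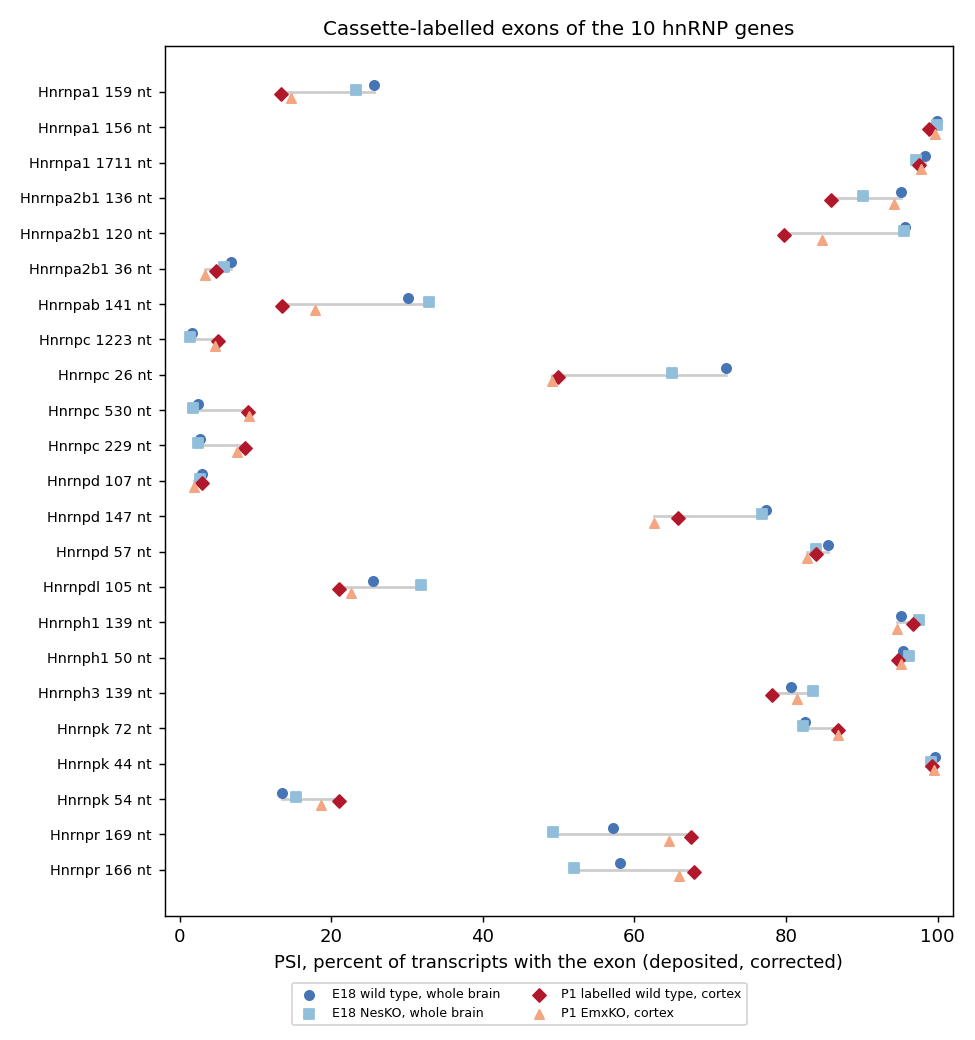
Deposited PSI (percent, x axis) of the 23 cassette-labelled middle exons in the 4 libraries, 1 point per library, with a grey line from the lowest to the highest. Points of the same stage lie close together in most rows, and the P1 points are left of the E18 points for *Hnrnpa1* 159 nt and the tail exons of *Hnrnpa2b1*, *Hnrnpab* and *Hnrnpd*.

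The first comparison asks which hnRNP exons differ in whole brain without PTBP2. By deposited PSI no cassette trio of the 30 differed by 10 points between the NesKO and the E18 WT library, where 11.5% of all 7935 cassette trios did. Of those 916 trios over the whole series, most of them at lower depth, 160 also had an adjusted p under 0.05. The median difference of the 30 was -0.3 points, against 0 over all cassette trios. By junction reads 3 of the 30 had an adjusted p under 0.05 (background 2.75%), and all were small. The 26 nt exon of *Hnrnpc*, a 5′ untranslated exon at chr14:52717690-52717715 (mm9), stood at 64.9% PSI in the NesKO library and at 72.1% in the E18 WT library. By junction reads it fell from 61.1% (95% Wilson interval, 58.8 to 63.3%) to 51.5% (48.7 to 54.2%), with an adjusted p of 1.19e-04. hnRNP C binds uridine tracts and is part of the core particle on nascent RNA.

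*Hnrnpa1* encodes a repressor of splicing, and its 159 nt coding exon, which keeps the frame, fell from 25.7 to 23.3% PSI in the NesKO library (adjusted p of 2.81e-17). This rests on 5977 inclusion and 22327 skipping reads in the E18 WT library and 4488 and 20585 in the NesKO library. *Hnrnph1* encodes a protein that binds runs of guanines. Its 139 nt exon, whose skipping shifts the frame, rose from 95.2 to 97.5% (adjusted p of 0.0411). Constitutive-labelled exons of 75 nt in *Hnrnpa1* and 116 nt in *Hnrnph3*, named after their values were seen, also rose, by 0.7 and 1.2 points, with adjusted p of 0.0222 and 0.00226. The junction that skips *Hnrnpa1* 159 nt is also an inclusion junction of *Hnrnpa1* 75 nt, so their differences are not separate observations. Other differences of more than 5 points did not pass. The 105 nt NMD exon of *Hnrnpdl* stood at 31.8% in the NesKO and 25.5% in the E18 WT library (adjusted p of 0.0752), and the 169 nt first coding exon of *Hnrnpr* at 49.2 and 57.2% (adjusted p of 1).

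Counting every trio, 5 of 152 differed by 10 points at E18, 3 higher and 2 lower in the NesKO library, against a background of 2.4% of all 159345 trios. All 5 carry the constitutive label, none has more than 1 skipping read in either library, and each has an adjusted p of 1. The 162 nt exon of *Hnrnpd* stood at 99.9% deposited PSI in the NesKO library and at 79.7% in the E18 WT library, with 0 skipping reads in both. In *Hnrnpk* the 83 nt exon stood at 58.1 and 76.7%, also with 0 skipping reads. *Hnrnpc* exons of 115 nt (57.7 and 43.7%) and 76 nt (99.9 and 80.0%), which share an end, and 1 trio of *Hnrnph1* 137 nt (89.5 and 99.9%) complete the list. By junction reads the largest of the 5 differences was 0.147 points. The 84 nt exon of *Hnrnpk* had a PSI of 0.0% in all 4 libraries with 0 skipping reads and 1151 or more reads on each inclusion junction. Among all constitutive-labelled trios called at E18, 1289 of 2326 (55.4%) likewise had at most 1 skipping read in each library.

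**Figure D3:**
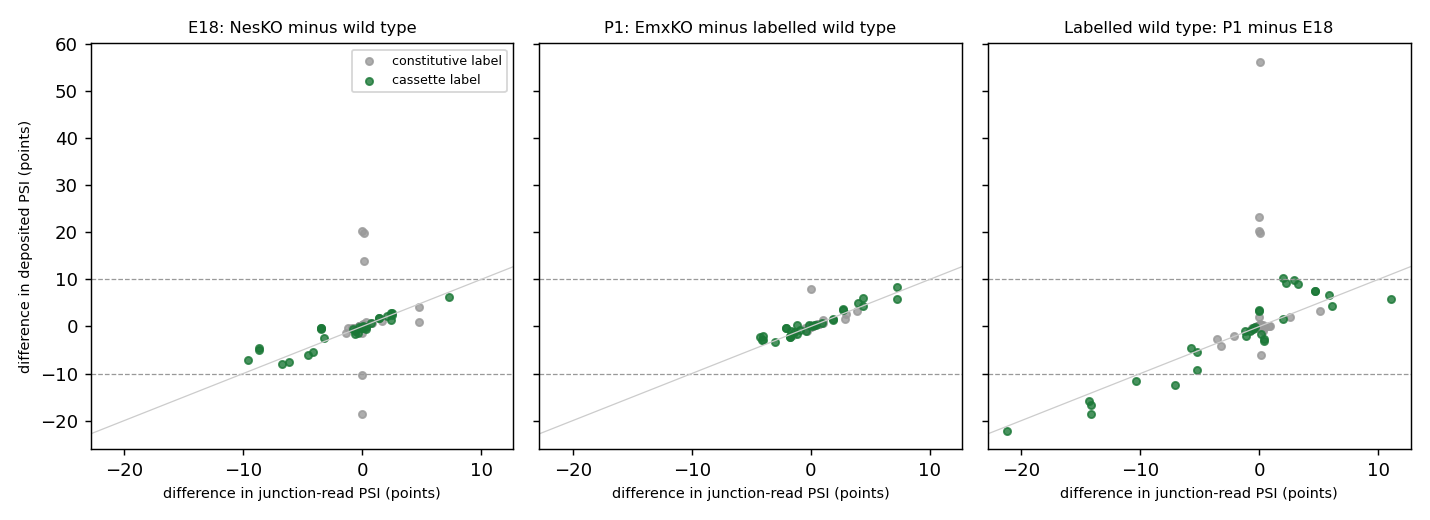
Difference in deposited PSI (points, y axis) against the difference in junction-read PSI (points, x axis) for the 152 trios in each comparison, with dashed lines at 10 points and the diagonal in grey. Cassette trios (green) scatter about the diagonal. Some lie well off it in the right panel, such as *Hnrnpr* 169 nt (10.3 deposited, 2.0 junction-read points) and *Hnrnpa1* 159 nt (-12.4 and -7.12). The constitutive trios (grey) past the dashed lines lie at a junction-read difference near 0, the highest at 56.2 points in the right panel.

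At P1 the question is the same in cortex. By deposited PSI no trio of the 152 differed by 10 points between the EmxKO library and the P1 library labelled WT, where 1.52% of all trios and 9.81% of cassette trios did. Of those 801 cassette trios over the whole series, 227 also had an adjusted p under 0.05. The median over the 30 cassette trios was -0.1 points, and 0.2 over all cassette trios. By junction reads 9 of the 30, in 7 exons, had an adjusted p under 0.05 (background 5.31%). Of these trios 7 stood higher and 2 lower in the EmxKO library, and trios of the same exon are not separate observations.

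Tail exons were among those with higher inclusion in the EmxKO library. *Hnrnpab*, which encodes a nucleic acid-binding protein with 2 RNA recognition motifs, had its 141 nt exon at 17.9% PSI in the EmxKO library and 13.5% in the P1 library labelled WT. The junction reads gave 19.7% (18.9 to 20.5%) and 15.3% (14.6 to 16%), with an adjusted p of 1.23e-13. The 120 nt exon of *Hnrnpa2b1*, the close relative of *Hnrnpa1*, stood at 84.7 and 79.8% (adjusted p of 1.43e-04). *Hnrnpa1* 159 nt rose from 13.3 to 14.7% (adjusted p of 0.0195) and *Hnrnpa1* 156 nt from 98.9 to 99.7% (adjusted p of 7.07e-12). The junction that skips the 159 nt exon is also an inclusion junction of the 156 nt exon, so these rises are not separate observations. *Hnrnpdl*, which encodes a relative of hnRNP D, had its constitutive-labelled 171 nt exon at 98.9 and 97.4% (adjusted p of 8.04e-08). The rule used here for naming exons does not reach that exon, which was picked after its values were seen. The homologous 147 nt exon of *Hnrnpd* stood lower in the EmxKO library, at 62.6 and 65.8%, and did not pass (adjusted p of 0.172).

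Among the remaining exons, the 136 nt exon of *Hnrnpa2b1*, which follows the stop codon, stood at 94.2 and 85.9% (adjusted p of 0.0493). With its inclusion junction of fewer reads alone the difference was 13.5 points at P1 and -22.7 at E18, in place of 8.3 and -5.1. The 36 nt exon of the same gene fell from 4.8 to 3.3% (adjusted p of 0.0317, and -0.43 points with the junction of fewer reads), and *Hnrnph1* 139 nt from 96.8 to 94.7% (adjusted p of 0.0116). The 26 nt exon of *Hnrnpc* was at 49.1 and 49.9% (adjusted p of 1). *Hnrnpr* 169 nt was at 64.6 and 67.5% and *Hnrnpd* 57 nt at 82.8 and 83.9%, both with an adjusted p of 1.

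The 2 knockout effects were compared by a Wald test on the difference of log odds ratios, which reached an adjusted p under 0.05 for 6 of 152 member trios in 4 exons (background 0.0818%, at the lower depth given above). *Hnrnpa1* 159 nt differed from its control by -2.4 points at E18 and by 1.4 at P1 (adjusted p of the difference, 2.13e-12). *Hnrnph1* 139 nt differed by 2.3 and -2.1 points (8.66e-05), *Hnrnpa2b1* 136 nt by -5.1 and 8.3 points (0.00232) and *Hnrnpdl* 171 nt by 0.5 and 1.5 points (0.0230). Genotype, Cre line, age, tissue and library protocol all differ between the 2 comparisons and cannot be told apart. For the *Hnrnpc* 26 nt exon, which passed at E18 and not at P1, the difference itself had an adjusted p of 0.164, and for *Hnrnpab* 141 nt 0.364.

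The third comparison sets the P1 library labelled WT beside the E18 WT library. Stage, tissue, library protocol and the *Ptbp2* exon 4 skipping of the P1 library cannot be told apart in it, and it shares a library with each of the others. Markers of cortex were higher at P1 (*Emx1*, 20.1 against 2.61, and *Tbr1*, 96.4 against 31.9 junction reads per 1000000, RPM), and the haemoglobin gene *Hbb-bs* was higher at E18 (1079 against 161 RPM). Their part in the differences was not tested. Of 30 cassette trios, 7 changed by 10 points, 6 lower and 1 higher at P1, against 21.5% of all cassette trios changed and 12.2% lower. With an adjusted p under 0.05 as well, 6 trios in 5 exons remained (background 8.73%). Whatever the size, 16 of 30 trios, in 14 exons, had such a p (background 14.2%). Over all 152 trios 11 changed (background 4.28%).

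All 5 of these exons fell at P1, and 4 of them are coding exons that keep the frame. Of these, 3 are the tail exons with the cassette label, and the codons of the fourth, *Hnrnpa1* 159 nt, were not counted. *Hnrnpab* 141 nt fell from 30.1 to 13.5% PSI. Its junction reads gave 29.5% (28.3 to 30.7%) and 15.3% (14.6 to 16%), intervals that do not overlap, with an adjusted p of 1.88e-96. *Hnrnpa2b1* 120 nt fell from 95.7 to 79.8% (adjusted p of 1.65e-182), and its skipping reads went from 474 beside a mean of 11249 inclusion reads to 927 beside 4132. *Hnrnpa1* 159 nt fell from 25.7 to 13.3%, and by 7.12 points in junction reads (adjusted p of 2.11e-63). *Hnrnpd*, which encodes AUF1, a protein that binds AU-rich elements and directs mRNA decay, had its 147 nt exon 7 at 77.3% at E18 and 65.8% at P1 (adjusted p of 5.04e-21). The other AUF1 cassette exon, 57 nt exon 2, stood at 85.5 and 83.9% (adjusted p of 1). The tail exon of *Hnrnpdl* stood at 97.3 and 97.4% (adjusted p of 1).

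**Figure D4:**
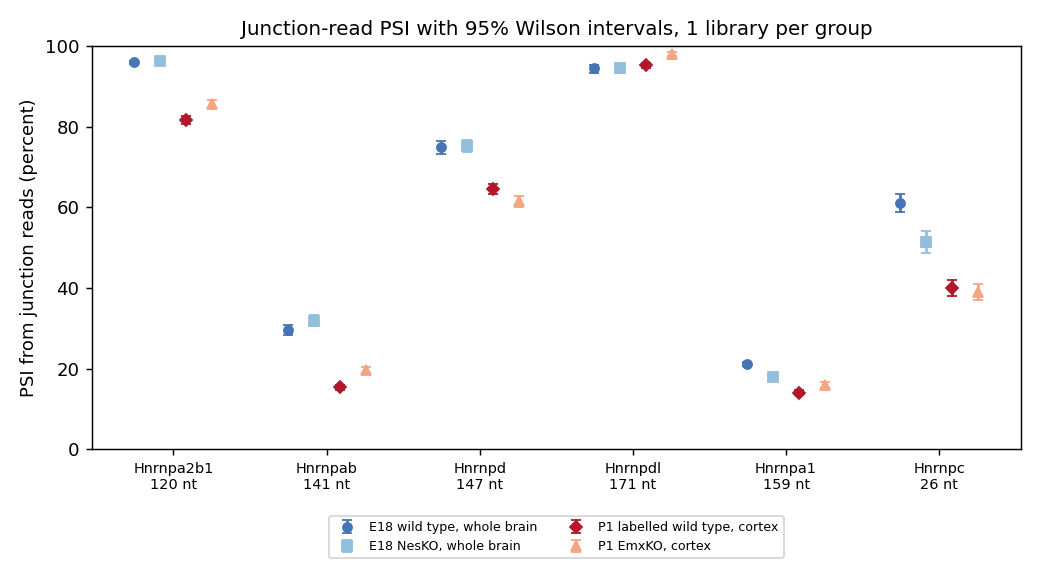
PSI from junction reads (percent, y axis) of the 4 tail exons, *Hnrnpa1* 159 nt and *Hnrnpc* 26 nt in each library, with 95% Wilson intervals that cover counting error only. For *Hnrnpab* the 2 E18 points lie at 29.5 and 31.9% and the P1 points at 15.3 and 19.7%, while for *Hnrnpdl* all 4 points lie between 94.4 and 98.1%.

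The fifth exon is the 26 nt exon of *Hnrnpc*, which fell from 72.1 to 49.9% PSI and from 61.1 to 39.9% in junction reads (adjusted p of 5.69e-39). Its 2 inclusion junctions carried 487 and 1681 reads at E18 and 1021 and 920 at P1, and with the junction of fewer reads alone the difference was -2.75 points. Other 5′ untranslated exons of *Hnrnpc* rose, 229 nt from 2.7 to 8.6% (adjusted p of 2.77e-21) and 530 nt from 2.4 to 9.0% (0.0103). These overlap each other and share junctions, also with the 26 nt exon, so they are not separate observations. In *Hnrnpk*, which encodes a KH-domain protein that binds cytosine-rich RNA, 72 nt exon 9 rose from 82.5 to 86.8% (9.38e-09) and the untranslated 54 nt exon from 13.5 to 21% (5.14e-04). *Hnrnpdl* 105 nt fell from 25.5 to 21% (0.00489). These values too depend on the junction. With the inclusion junction of fewer reads alone the difference of *Hnrnpk* 72 nt turned to -1.73 points, and those of *Hnrnpk* 54 nt, *Hnrnpdl* 105 nt and *Hnrnpc* 229 nt were 0.47, -0.44 and 1.56 points. *Hnrnpr*, which encodes a relative of SYNCRIP, had its 169 nt exon at 57.2 and 67.5%, a change of 10.3 points in deposited PSI and 2 points in junction reads that did not pass (adjusted p of 1).

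By annotation, 8 of the 23 cassette exons are coding and keep the frame, 9 hold no coding base and the other 6 are partly coding or shift the frame. Between the stages 7 of the 8 frame-keeping exons stood lower at P1 (median difference, -6.75 points), against 5 of the 9 exons without coding bases (median, -0.1 points) and 3 of the other 6 (median, 0.6 points). In the NesKO comparison the medians were -0.35, -0.3 and 0.15 points, and in the EmxKO comparison 0.45, -0.4 and -0.85 points. The 8 frame-keeping exons include the 4 already named for their fall between the stages, so their count is not a separate observation. No count over frame-keeping exons of other genes is set beside it. Between the stages the median over all 7893 cassette trios was -0.1 points. The counts by kind of exon describe the exons and were not tested.

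Alternative splice sites and retained introns cannot be matched by exon and intron lengths. A search by position, chosen after the values were seen, found 40 further trios within 2000 nt of the matched ones, 33 of them with those labels. Of these, 30 had 20 reads in both libraries at E18 and 32 at P1, and none of them differed by 10 points in these comparisons. Over all trios 2.4% and 1.52% did, and no share over all trios with these labels was made. At P1 the segment of 1119 nt near the end of *Hnrnpdl* that is retained as an intron stood at 37.0% in the EmxKO library and 30.1% in the P1 library labelled WT (adjusted p of 8.47e-08), and at E18 at 34.2 and 29.5% (adjusted p of 1). It spans the 105 nt NMD exon. Between the stages, 5 of 31 tested trios with those labels changed by 10 points, 4 higher and 1 lower at P1 (4.28% of all trios changed). They cover 3 extensions, and the *Hnrnpk* trios among them hold the same reads, so they are not separate observations. The use of a 39 nt extension of an *Hnrnpc* coding exon rose from 36.5 to 59.7% (adjusted p of 3.54e-28). That of a 60 nt extension in *Hnrnpk* rose from 41.3 to 61.6% (8.05e-10, and from 41.8 to 51.7% in junction reads). That of a 25 nt extension in *Hnrnpc* fell from 39.7 to 12.9% (8.99e-45). This extension and the *Hnrnpc* 26 nt exon share a skipping junction, so their falls are not separate observations.

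Among 15 other hnRNP genes, 13 had trios, 187 in all. Of their 13 cassette trios 0 differed by 10 points in either knockout comparison (background 11.5% of cassette trios at E18 and 9.81% at P1). Of all their trios, 6 of 185 differed by 10 points at E18 (background 2.4%), each with at most 1 skipping read per library, and 0 of 187 at P1 (background 1.52%). No trio passed both 10 points and an adjusted p of 0.05 there. By Fisher's exact test 2 of 185 tested trios had an adjusted p under 0.05 at E18 (6 at an unadjusted p under 0.05), and 0 of 187 at P1 (8 unadjusted). Over the whole series 402 of 159345 trios had such an adjusted p at E18 and 753 of 159174 at P1. Between the stages, 14 of 186 changed by 10 points (background 4.28%) and 5 of these also passed the adjusted p.

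The number of reads on all distinct junctions of a gene was also compared, a measure chosen after the data were seen. It carries no test, since a gene has 1 value per library, and in bulk tissue fewer cells of a type and less RNA per cell cannot be told apart. In the EmxKO library *Hnrnpdl* had 205 RPM and in the P1 library labelled WT 402, a 1.96-fold lower level, with all 8 junctions of at least 200 reads in both lower. *Hnrnpr* had 153 and 294, 1.93-fold lower, with 12 of 12 junctions lower. These were the only 2 of 10 genes at least 1.5-fold lower, where 16.1% of 9862 genes were. *Hnrnpk* was 1.39-fold and *Hnrnph1* 1.33-fold lower, and *Hnrnph3* stood at 100.1 against 91.6. All junctions of at least 200 reads were lower in *Hnrnpk* (18), *Hnrnph1* (14) and *Hnrnpd* (10) too, and 2 of 10 were in *Hnrnph3*. Junctions of a gene come from the same 2 libraries and are not replicates. Of the 13 other hnRNP genes with trios, 7 stood lower in the EmxKO library, 3 of these at least 1.5-fold, and 6 stood higher. The lowest was *Syncrip*, the relative of *Hnrnpr*, with 111 RPM against 271 in the P1 library labelled WT.

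At E18 no member differed 1.5-fold (background 6.43%), and the log2 differences ran from -0.32 in *Hnrnpr* (163 against 204 RPM) to 0.00 in *Hnrnpab* (510 against 509). Summed markers of neurons were 1777 RPM in the NesKO and 2030 in the E18 WT library, and 2851 and 3030 in the P1 libraries, with all 5 markers detected in each. The 5 did not move together. At P1 *Map2* stood at 367 RPM in the EmxKO library and 635 in the library labelled WT, and *Snap25* at 64.3 and 127, 1.73-fold and 1.97-fold lower, while *Tubb3* stood at 1526 and 1213. At E18 *Snap25* was at 90.2 and 193. Summed markers of astrocytes were 149 and 192 at E18 and 174 and 154 at P1. Of these, *Gfap* was higher in both knockout libraries (65.9 against 23.7 and 28.8 against 12.3), while *Slc1a3* stood at 76.6 and 158, and 144 and 140. Summed markers of microglia were 82.0 and 58.4, and 48.1 and 31.2. Their part in these levels was not tested. Between the stages *Hnrnph3* went from 256 to 91.6 RPM and *Hnrnpa2b1* from 1858 to 846, while *Hnrnpdl* went from 199 to 402 and *Hnrnpk* from 802 to 1246. That makes 4 of 10 genes different by 1.5-fold, where 44.1% of all genes were.

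**Figure D5:**
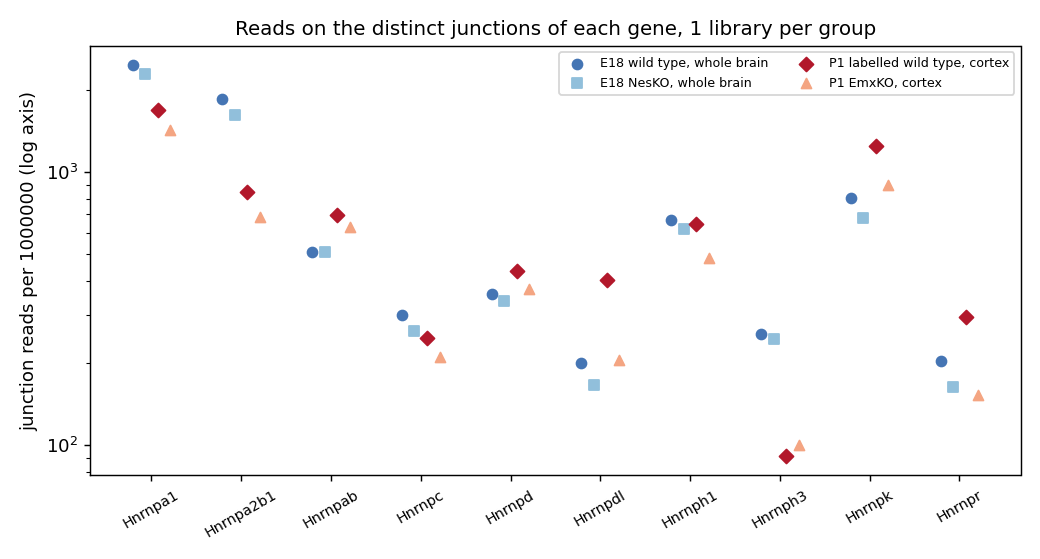
Junction reads per 1000000 (RPM, log axis) of the 10 genes in the 4 libraries, 1 point per library. In *Hnrnpdl* the P1 library labelled WT (402) stands apart from the other 3 (166 to 205), and in *Hnrnpa2b1* and *Hnrnph3* both P1 points lie below both E18 points.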

How the data were processed

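The members and gene lists were chosen with earlier results of these data known. The submitters' processing notes name mm9, CASAVA, TopHat and Cufflinks, and the authors estimated splicing with SpliceTrap, whose deposited tables hold, for every trio, 2 inclusion ratios (a fraction from 0 to 1, uncorrected and corrected) and the read counts on 3 junctions. Rows of the 4 libraries were joined by trio identifier, and coordinates were printed as 1-based mm9. Genes were named by lengths against GENCODE M21 (GRCm38), with no conversion between builds. PSI is 100 times the corrected fraction, and a mean of 2 junctions was rounded before Fisher's exact test. Odds ratios had 0.5 added to each count.

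For each middle exon with several trios, the trio with most reads is given. Exons named are all cassette-labelled ones and the constitutive-labelled ones that differ by 10 points in any comparison, 28 in all, and others are named where said. Gene levels count each distinct junction once. Background shares of levels cover genes with 200 reads in every library, a minimum that was not applied to members or markers. *Emx1* had 131 reads in the E18 WT library. The tests were tried on simulated data with known changes. Tables were made in Python 3.11.15 (pandas 2.3.3, numpy 2.4.6), tests in scipy 1.17.1 and figures in matplotlib 3.10.9. Alternatives were minimums of 1, 10 and 50 reads, the uncorrected ratio, junction reads alone, thresholds of 5 and 20 points, a required adjusted p, 1 trio per exon, and constitutive trios left out. Some items, a marker gene and a sequence among them, are not reported here.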

Additional observations from a re-analysis of the deposited data

Results flagged for a closer look

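In 4 exons the effect of the knockout at E18 differed from that at P1 by the Wald test, and the values here are the log2 odds ratio of inclusion (knockout over control) at E18 minus that at P1. *Hnrnpa1* 159 nt gave -0.51, from -0.30 at E18 and 0.21 at P1. *Hnrnph1* 139 nt gave 1.58, from 0.84 and -0.75. *Hnrnpdl* 171 nt gave -1.34, from 0.01 and 1.35. *Hnrnpa2b1* 136 nt gave -2.52, from -1.22 and 1.30, and its 2 inclusion junctions carried 366 and 97 reads in the NesKO library and 394 and 283 in the E18 WT library. Each rests on 1 library per group.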

How the results depend on the processing

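No paired analysis was possible because each group has 1 library. The count of member trios changed at E18 was 5, and it became 0 with junction reads alone, 0 with a required adjusted p, 0 without constitutive-labelled trios, 12 at 5 points and 1 at 20 points. The count of 0 at P1 became 4 at 5 points. The count of 11 between the stages became 6 with junction reads alone, 6 with a required adjusted p, 7 without constitutive-labelled trios, 21 at 5 points and 4 at 20 points. The 5 E18 calls are trios with at most 1 skipping read, which junction reads place near 0. Other alternatives (minimums of 1, 10 and 50 reads, the uncorrected ratio, 1 trio per exon) left each count within 1.5 times. Among the differences of named exons, 14 reached 10 points, and of their 54 alternatives 35 kept the call, 18 were under 10 points and 1 reversed, *Hnrnpr* 169 nt between the stages, at -2.75 points with the inclusion junction of fewer reads. Of 279 alternatives of the other 70 differences 274 stayed under 10 points and 5 passed it. With the junction of fewer reads these were *Hnrnpa2b1* 136 nt at E18 (-22.7 points), at P1 (13.5) and between the stages (-20.9), and *Hnrnpk* 44 nt between the stages (-12.5). With junction reads alone it was *Hnrnpc* 229 nt between the stages (11.1). The P1 differences of *Hnrnpdl* and *Hnrnpr* reads were -0.97 and -0.95 on the log2 scale, and -0.94 and -0.91 as medians over junctions. Depth limits the trios near 20 reads, and the lowest member trio had 21.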
